A study of Mus musculus with 12 samples.

Results

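Mouse embryonic stem (ES) cells of a double knockout (DKO) line of SUV420H1 and SUV420H2 were compared after and before differentiation. The differentiated group held 2 RNA-seq libraries, 1 from day 8 and 1 from day 12, and the ES group held 2 libraries of undifferentiated DKO cells, labelled replicates 1 and 2. These 4 of the 12 libraries of the series were chosen by their titles alone. The other 8 libraries followed the same layout, with 2 differentiated libraries (day 8 and day 12) and 2 ES libraries each of a SUV420H2 knockout (KO) and of wild type (WT). All ES cells had been passaged without feeder cells on gelatin in medium with 1.5 µM of the GSK3 inhibitor CHIR9901. The labels do not name how differentiation was induced, whether the inhibitor was then kept, which exons were deleted, or how many clones stand for a genotype, so a genotype and its line cannot be told apart. They also do not say that the ES replicates were separate cultures, so p-values measure the spread between these libraries, which may be technical, together with the change between day 8 and day 12.

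SUV420H1 and SUV420H2 add methyl groups to histone H4 at lysine 20 that already carries 1 methyl group, and SUV420H2 is best known for the trimethyl mark of constitutive heterochromatin. ES cells are held in a naive state by a network around Pou5f1, Nanog and Sox2. When they leave it they pass through a primed, epiblast-like state marked by Fgf5 and Otx2, and from there form streak-like mesoderm, definitive endoderm or ectoderm, while yolk-sac-type endoderm can arise beside them. In bulk RNA, fewer cells of a type and less RNA per cell cannot be told apart.

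The 4 DKO libraries held 23421465 (day 8), 24925199 (day 12), 23306047 and 25813359 (ES) reads in genes, within the 22538336 to 26675600 of the whole series. Levels are given as depth-scaled counts (CPM, after TMM scaling), in the order day 8, day 12, and changes as log2 fold changes with standard errors (SE) from edgeR's quasi-likelihood test, adjusted over 13429 genes. A gene was called where its adjusted p was under 0.05. Suv420h2 read 37.1 CPM at day 8 and 24.6 CPM at day 12, against 23.2 and 14.9 CPM in DKO ES cells, well under the 128 and 125 CPM of differentiated WT cells and 122 and 111 CPM of WT ES cells. Suv420h1 read 59.95 and 83.8 CPM in differentiated cells and 60.5 and 70 CPM in ES cells, above every WT library. Read counts over whole transcript models cannot show the loss of an exon, so Suv420h1 checks nothing here, and neither gene's change on differentiation passed the test (adjusted p = 0.15 and 0.66). Of 8 tested enzymes, erasers and readers of H4 lysine 20 methylation, 0 were called by edgeR, 2 had an unadjusted p under 0.05, and DESeq2 called 0. One member, L3mbtl3, differed between the days, with a log2 fold change against ES of -0.18 for day 8 alone and 1.89 for day 12 alone. Over the 8 genes the median change was -0.13 at day 8 and 0.13 at day 12 on a log2(CPM + 1) scale.

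On differentiation 745 genes rose and 587 fell in DKO cells, 5.55% and 4.37% of the genes tested, and 615 and 355 of them changed at least 2-fold. Genes whose 2 differentiated libraries both lay above both ES libraries made up 27.9% of all tested, and those below 27.7%. In WT cells 3940 genes rose (29.3%) and 3623 fell (27%), 56.3% in all. In KO cells 1478 rose (11%) and 871 fell (6.49%), 17.5% in all. The DKO change was above the WT change at 2201 genes (16.4%) and below it at 2067 (15.4%), 31.8% in all. It was above the KO change at 299 (2.23%) and below it at 278 (2.07%), 4.3% in all. Of the 745 genes that rose in DKO cells, 377 rose in WT cells as well, which is 50.6% of the DKO set and 9.57% of the WT set, and 108 fell in WT cells (14.5% and 2.98%). Of the 587 that fell in DKO cells, 256 fell in WT cells (43.6% and 7.07%) and 81 rose there (13.8% and 2.06%). The DKO counts rest on both ES libraries: without the first, 98 genes rose and 123 fell, and without the second 36 rose and 42 fell. With day 8 as the only differentiated library 610 genes rose and 447 fell, and with day 12 as the only one 879 rose and 499 fell. A fit on the 4 DKO libraries alone called 223 and 197, and DESeq2 on all 12 called 1534 and 1290.

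**Figure D1:**
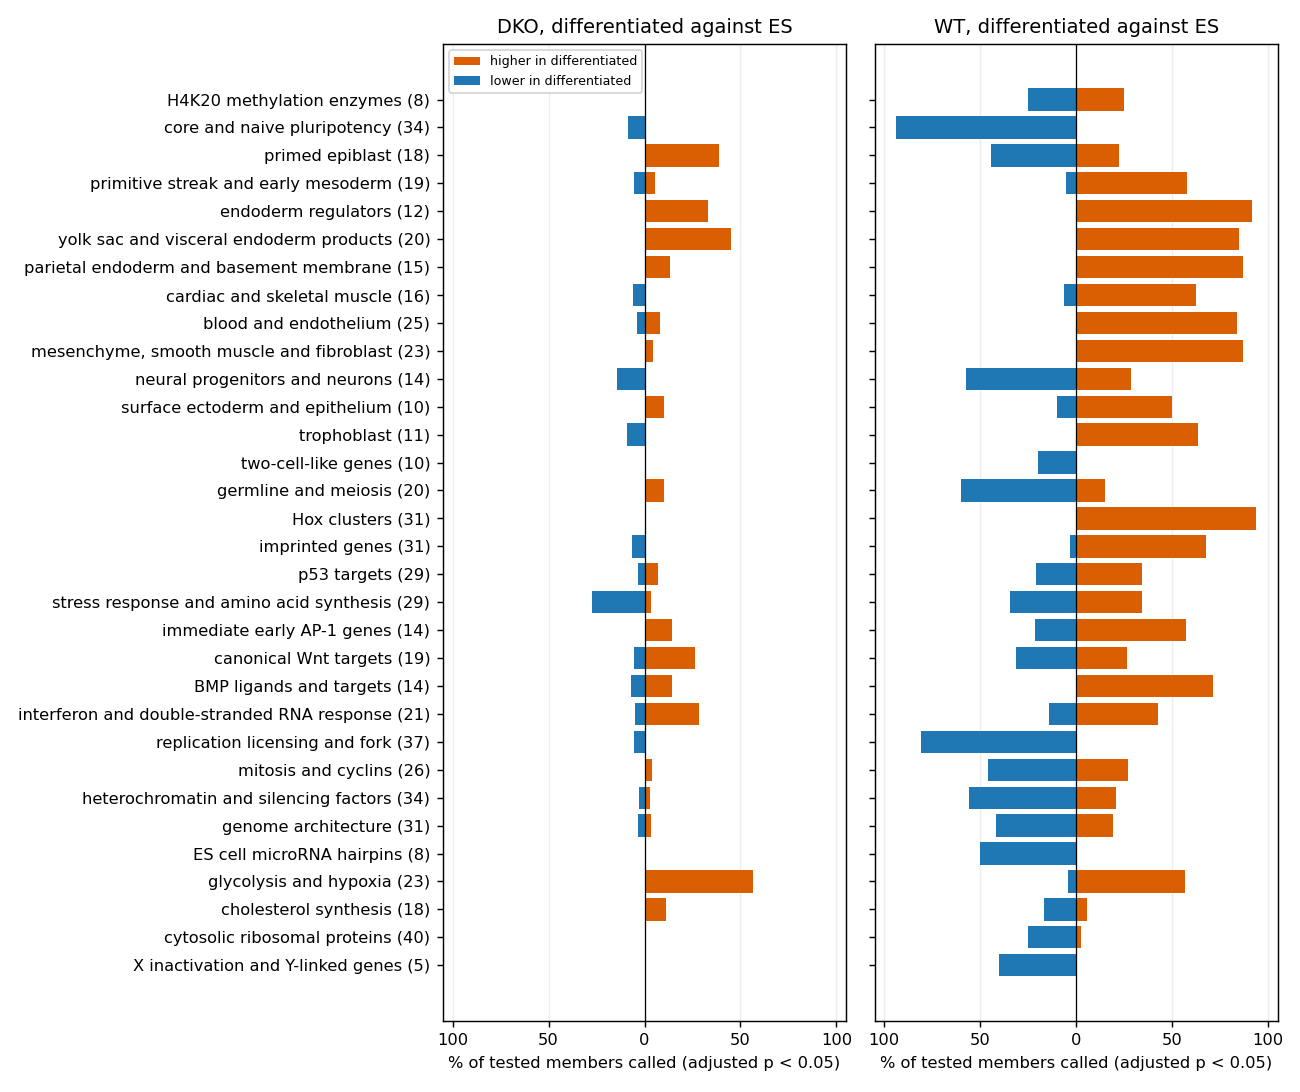
Share of the tested members of each gene list (number tested in parentheses) called higher (right) or lower (left) in differentiated than in ES cells, in DKO (left panel) and in WT (right panel), at an adjusted p under 0.05; over all genes 9.92% were called in DKO and 56.3% in WT. In DKO the longest bars are the rises of glycolysis and hypoxia genes (13 of 23) and of yolk sac products (9 of 20), while the pluripotency list, with 32 of 34 lower in WT, has 3 lower in DKO.

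The core pluripotency factors Pou5f1, Nanog and Sox2 were not called lower in differentiated than in ES cells of the DKO line. Of the 34 genes in the list of core and naive factors, 0 rose and 3 fell in DKO cells, with a median log2 fold change of -0.21 beside 0.04 over all genes, whereas 32 of the same 34 fell in WT cells (median -3.83). Pou5f1, the octamer factor at the centre of the network, had 1778 CPM at day 8 and 941 CPM at day 12, against 1436 and 1330 CPM in DKO ES cells. Pou5f1 had a log2 fold change of -0.03 ± 0.47 (adjusted p = 0.98). It had 117 and 57.6 CPM in differentiated WT cells and 1770 and 1767 CPM in WT ES cells. The DKO libraries thus overlap after and before differentiation, and the WT libraries do not. Nanog had 244 CPM at day 8 and 242 CPM at day 12, against 206 and 181 CPM in DKO ES cells. Nanog had a log2 fold change of 0.33 ± 0.39 (adjusted p = 0.61). DKO ES cells started below the 392 and 417 CPM of WT ES cells and the 1131 and 1087 CPM of KO ES cells. Differentiated KO cells had 288 and 215 CPM of Nanog, near the DKO level, and differentiated WT cells had 39.2 and 13.3 CPM. Sox2 had 2298 CPM at day 8 and 1121 CPM at day 12, against 2092 and 1778 CPM in DKO ES cells. Sox2 had a log2 fold change of -0.18 ± 0.53 (adjusted p = 0.85). The difference between the DKO and the WT change was 4.32 ± 0.70, adjusted p = 0.0043 for Pou5f1, 4.28 ± 0.57, adjusted p = 0.0033 for Nanog and 3.66 ± 0.78, adjusted p = 0.01 for Sox2. By that test the DKO change was above the WT change at 30 of the 34 genes and below it at 1, Tbx3. In the KO line 14 of the 34 fell (median -1.34), and the DKO change was above the KO change at 3. Pou5f1 and Sox2 were not called lower in KO cells (adjusted p = 0.086 and 0.22), and the difference between their DKO and KO changes did not pass the test (adjusted p = 0.26 and 0.54). In day 12 cells Pou5f1 and Sox2 read below both ES libraries, at 941 and 1121 CPM, and the list's median change against ES was -0.78 at day 12 and 0.05 at day 8 on a log2(CPM + 1) scale.

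The 3 members that fell belong to the naive layer of the network. Tfcp2l1, a factor of the naive state that acts below LIF and GSK3 inhibition, had 583 CPM at day 8 and 507 CPM at day 12, against 3037 and 3494 CPM in DKO ES cells. Tfcp2l1 had a log2 fold change of -2.58 ± 0.21 (adjusted p = 0.00076). Tbx3, a T-box factor of naive cells, had 709 CPM at day 8 and 694 CPM at day 12, against 2843 and 2390 CPM in DKO ES cells. Tbx3 had a log2 fold change of -1.90 ± 0.20 (adjusted p = 0.0019). Both genes read well above WT ES cells before differentiation, Tfcp2l1 at 1275 and 1308 CPM and Tbx3 at 423 and 407 CPM there. Jam2, an adhesion molecule of ES cells, fell by 2.34 ± 0.51 on the log2 scale (adjusted p = 0.026), to 128 and 85.5 CPM against 526 and 553 CPM. Other naive genes were lower in both differentiated libraries than in both ES libraries and did not pass. Esrrb, an orphan nuclear receptor, had 875 CPM at day 8 and 495 CPM at day 12, against 2470 and 2527 CPM in DKO ES cells. Esrrb had a log2 fold change of -1.87 ± 0.59 (adjusted p = 0.073). Klf4 had 369 and 322 CPM in differentiated cells and 1866 and 1285 CPM in ES cells (log2 fold change -2.19 ± 0.81, adjusted p = 0.11). Zfp42 had 168 and 105.3 CPM in differentiated cells and 304 and 303 CPM in ES cells (log2 fold change -1.15 ± 0.46, adjusted p = 0.14). Without the first DKO ES library the Jam2 call was lost (adjusted p = 0.09), as it was without the second (0.15) and with day 8 as the only differentiated library (0.086). Tfcp2l1 and Tbx3 were called in each of these fits.

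**Figure D2:**
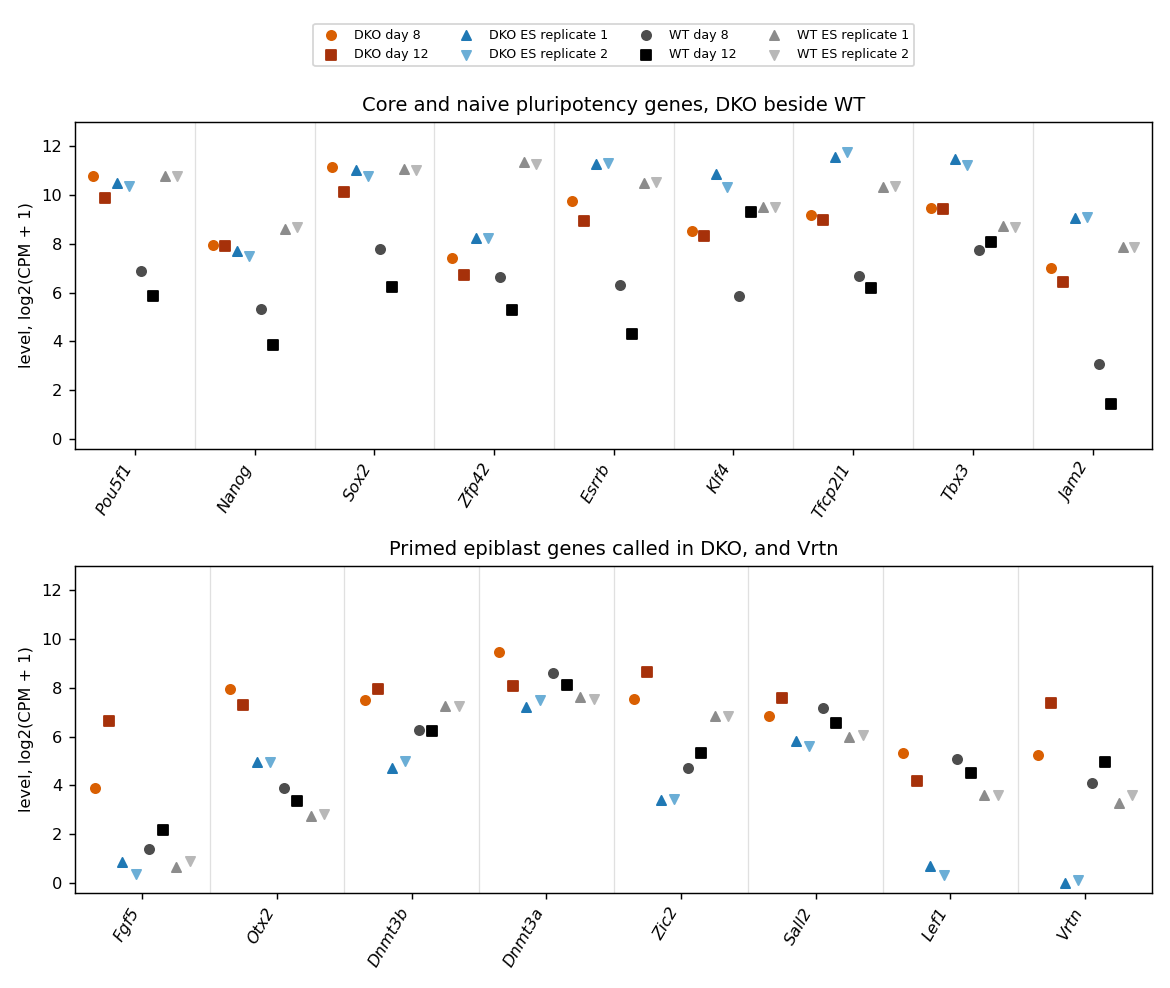
Levels as log2(CPM + 1) of 9 core and naive pluripotency genes (top) and of 7 primed epiblast genes that rose in DKO cells with Vrtn (bottom), 1 symbol per library, DKO in colour and WT in grey, differentiated libraries left of ES libraries. Pou5f1, Nanog and Sox2 stay near the ES level in DKO cells and drop in WT cells, and in the lower panel both differentiated DKO libraries lie above both DKO ES libraries for each gene.

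The miR-290 cluster on chromosome 7, the main microRNA cluster of mouse ES cells, behaved like the core factors. Several of its microRNAs share a seed, the bases that pair with target RNAs, and the cluster is known for promoting the rapid ES cell cycle. Poly(A) libraries read the hairpin region of the unprocessed transcript and not the mature microRNA. The 3p products of the 4 hairpins whose change differed between DKO and WT cells are these (RefSeq, GRCm38.p6), with the seed, bases 2 to 8, in capitals; the hairpin named Mir290 in the deposited tables is Mir290a in RefSeq.
mmu-miR-290a-3p: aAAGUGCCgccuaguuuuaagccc
mmu-miR-291b-3p: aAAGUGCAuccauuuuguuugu
mmu-miR-294-3p: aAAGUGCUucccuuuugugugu
mmu-miR-295-3p: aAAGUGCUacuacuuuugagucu
The products of Mir294 and Mir295 share the seed AAGUGCU, and the other two differ from it in the last base of the seed. Of 8 hairpins tested 0 were called in DKO cells by edgeR, 1 had an unadjusted p under 0.05, and DESeq2 called 0. Mir294 had 6.61 CPM at day 8 and 4.18 CPM at day 12, against 3.09 and 2.65 CPM in DKO ES cells, and 0.657 and 0.599 CPM in differentiated WT cells and 2.99 and 2.50 CPM in WT ES cells. Its libraries were low in differentiated WT cells only, and the change in DKO exceeded that in WT by 3.03 ± 0.76, adjusted p = 0.018 on the log2 scale. Mir291b had 13.7 CPM at day 8 and 6.02 CPM at day 12, against 6.04 and 4.53 CPM in DKO ES cells, and 1.24 and 1.72 CPM in differentiated WT cells and 4.74 and 3.43 CPM in WT ES cells (difference of changes 2.36 ± 0.66, adjusted p = 0.026). Neither difference held without any 1 of the WT and DKO ES libraries (adjusted p = 0.051 to 0.064 for Mir294 and 0.057 to 0.091 for Mir291b), and that of Mir291b was also lost without WT day 8 (0.059) or DKO day 8 (0.081).

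Several markers of the primed epiblast rose. Of 18 tested, 7 rose and 0 fell in DKO cells (median log2 fold change 1.69), against 4 that rose and 8 that fell in WT cells, and the change differed from that in WT for 11, each time towards higher in DKO. In the KO line 5 of the 18 rose and 0 fell (median 0.17). The DKO change was above the KO change at 3 and below it at 0. Fgf5, the growth factor that defines the post-implantation epiblast, had 13.9 CPM at day 8 and 98.8 CPM at day 12, against 0.806 and 0.285 CPM in DKO ES cells. Fgf5 had a log2 fold change of 6.69 ± 1.04 (adjusted p = 0.0082). Otx2, the homeobox factor that drives exit from the naive state, had 246 CPM at day 8 and 155 CPM at day 12, against 29.7 and 30.1 CPM in DKO ES cells. Otx2 had a log2 fold change of 2.75 ± 0.38 (adjusted p = 0.0059). Day 8 was higher than day 12 for Otx2 and lower for Fgf5, and all 4 readings lay above the ES libraries. Dnmt3b, the de novo DNA methyltransferase of the epiblast, had 180.4 CPM at day 8 and 245 CPM at day 12, against 25.3 and 30.8 CPM in DKO ES cells. Dnmt3b had a log2 fold change of 2.92 ± 0.39 (adjusted p = 0.0056). Dnmt3a rose to 716 and 266 CPM, against 147 and 179 CPM (log2 fold change 1.59 ± 0.39, adjusted p = 0.036).

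Zic2 and Lef1 started in DKO ES cells at levels far below those of WT ES cells. Zic2, a zinc finger factor of primed cells, had 183 CPM at day 8 and 401 CPM at day 12, against 9.58 and 9.87 CPM in DKO ES cells. Zic2 had a log2 fold change of 4.91 ± 0.45 (adjusted p = 0.0012), while WT ES cells had 114 and 114 CPM. Lef1, a nuclear partner of beta-catenin, had 39.3 CPM at day 8 and 17.2 CPM at day 12, against 0.627 and 0.245 CPM in DKO ES cells. Lef1 had a log2 fold change of 6.02 ± 0.65 (adjusted p = 0.0022), with 11.3 and 11.01 CPM in WT ES cells. Dnmt3b in WT ES cells stood at 152 and 151 CPM, between the DKO ES and the differentiated DKO levels, so that these genes differ in their starting point as well as in their change. The DKO change exceeded the WT change by 6.72 ± 0.59, adjusted p = 0.0019 for Zic2, by 4.71 ± 0.79, adjusted p = 0.0048 for Lef1, by 3.93 ± 0.53, adjusted p = 0.0034 for Dnmt3b and by 4.85 ± 1.29, adjusted p = 0.022 for Fgf5. Both tests use the same DKO ES libraries. The difference for Fgf5 was lost without WT ES replicate 1 (adjusted p = 0.054), WT ES replicate 2 (0.077), DKO ES replicate 2 (0.083) or WT day 8 (0.051). Of the 7 rises, those of Zic2 and Lef1 held without either DKO ES library; the other 5 had adjusted p = 0.052 to 0.17 without the first and 0.061 to 0.19 without the second. Sall2, a spalt-family zinc finger gene, was called with day 12 and not with day 8 as the only differentiated library (adjusted p = 0.054), and Dnmt3a with day 8 and not with day 12 (0.099).

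Genes outside the list with the largest rises included Vrtn, a factor of vertebral number that is known from pigs, with 37.2 CPM at day 8 and 164 CPM at day 12, against 0 and 0.0816 CPM in DKO ES cells. Vrtn had a log2 fold change of 11.04 ± 1.06 (adjusted p = 0.0014). With 2 reads in the ES libraries, the ratio of its levels was 2430 (95% counting interval 673 to 20100). Muc13, a membrane mucin of epithelia, had 5.06 CPM at day 8 and 48.8 CPM at day 12, against 0 and 0 CPM in DKO ES cells, at least 210-fold higher on a floor of 3 reads per ES library. Prss12, a serine protease, had 4.84 and 66.8 CPM in differentiated cells and 0 and 0.0816 CPM in ES cells, and Spink3, a trypsin inhibitor, had 1.34 and 22.2 CPM in differentiated cells and 0.0896 and 0 CPM in ES cells; these are ratios of 875 (242 to 7230) and 289 (79.5 to 2390) over 2 ES reads each. Cyp26a1, which degrades retinoic acid, had 13.8 CPM at day 8 and 101 CPM at day 12, against 0.358 and 0.245 CPM in DKO ES cells. Cyp26a1 had a log2 fold change of 7.56 ± 1.50 (adjusted p = 0.02). Adora1, an adenosine receptor, had 5.27 and 118 CPM in differentiated cells and 0.448 and 0.245 CPM in ES cells (log2 fold change 7.47 ± 1.71, adjusted p = 0.03). Day 12 was the higher of the differentiated libraries for all 6. Muc13, Prss12 and Adora1 reached the filter only with the help of WT or KO libraries. Vrtn held without either DKO ES library, and the other 5 did not (adjusted p = 0.08 to 0.14 without the first and 0.12 to 0.23 without the second). Spink3 and Adora1 were also lost with day 8 as the only differentiated library (0.084 to 0.087).

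Genes of yolk-sac-type endoderm rose, with higher levels at day 12 than at day 8. Of 12 endoderm regulators 4 rose and 0 fell (median log2 fold change 3.37), and of 20 tested yolk sac and visceral endoderm products 9 rose and 0 fell (median 5.31). In WT cells 11 of the 12 and 17 of the 20 rose. Afp was among 5 of the 20 products that reached the filter only with the help of WT or KO libraries. Hnf4a, the nuclear receptor that directs visceral endoderm function, had 14.96 CPM at day 8 and 150.1 CPM at day 12, against 0 and 0.245 CPM in DKO ES cells. Hnf4a had a log2 fold change of 9.29 ± 1.66 (adjusted p = 0.014), which rests on 0 and 6 reads in the ES libraries and ranged from 2.92 (limma on log2(RPKM + 1)) to 13.98 (without the second DKO ES library) over the alternatives. Dab2, an endocytic adaptor, had 54.5 CPM at day 8 and 649 CPM at day 12, against 3.54 and 2.90 CPM in DKO ES cells. Dab2 had a log2 fold change of 6.77 ± 1.55 (adjusted p = 0.03). Foxa2, a forkhead factor of endoderm, had 8.04 and 127 CPM in differentiated cells and 2.55 and 0.979 CPM in ES cells. Foxa2 had a log2 fold change of 5.26 ± 1.43 (adjusted p = 0.0495). Day 12 stood above day 8 by 9.47-fold for Hnf4a, 11.7-fold for Dab2 and 14.2-fold for Foxa2, and day 8 already stood above both ES libraries. Foxq1, another forkhead factor, had 41.5 and 328 CPM in differentiated cells and 12.5 and 5.42 CPM in ES cells (log2 fold change 4.37 ± 1.16, adjusted p = 0.046).

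Among the products, Cubn, the receptor with which visceral endoderm takes up protein, had 68.8 CPM at day 8 and 500.1 CPM at day 12, against 1.21 and 1.59 CPM in DKO ES cells. Cubn had a log2 fold change of 7.66 ± 1.46 (adjusted p = 0.017). Its partners rose with it. Lrp2, a scavenger receptor, had 123 CPM at day 8 and 399 CPM at day 12, against 17.2 and 20.4 CPM in DKO ES cells. Lrp2 had a log2 fold change of 3.79 ± 0.64 (adjusted p = 0.011). Amn, the membrane anchor of cubilin, had 15.3 and 125 CPM in differentiated cells and 5.28 and 2.90 CPM in ES cells (log2 fold change 4.10 ± 0.88, adjusted p = 0.025). Apob, the lipoprotein backbone, had 61.2 CPM at day 8 and 859 CPM at day 12, against 0.627 and 1.84 CPM in DKO ES cells. Apob had a log2 fold change of 8.53 ± 2.04 (adjusted p = 0.034). Mttp, which loads lipid onto it, had 14.8 and 104 CPM in differentiated cells and 1.88 and 2.61 CPM in ES cells (log2 fold change 4.72 ± 0.95, adjusted p = 0.021). This lipid-secreting group was above both ES libraries at both days. Ttr, the thyroxine carrier, had 4.62 CPM at day 8 and 99.7 CPM at day 12, against 0.224 and 0.245 CPM in DKO ES cells. Ttr had a log2 fold change of 7.76 ± 2.06 (adjusted p = 0.046). Apoc2 had 1.90 and 119.5 CPM in differentiated cells and 0.0896 and 0.0816 CPM in ES cells (log2 fold change 9.39 ± 2.52, adjusted p = 0.048). Ihh, the hedgehog ligand of visceral endoderm, had 8.43 and 194 CPM in differentiated cells and 1.48 and 1.22 CPM in ES cells (log2 fold change 6.23 ± 1.64, adjusted p = 0.046). Slc39a8, a metal transporter, had 17.4 and 93.4 CPM in differentiated cells and 6.13 and 4.81 CPM in ES cells (log2 fold change 3.34 ± 0.77, adjusted p = 0.03). Afp, the fetal serum protein, had 0.648 CPM at day 8, 51.1 CPM at day 12 and no read in the ES libraries, at least 200-fold higher on a floor of 3 reads per library, without a call (adjusted p = 0.11).

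Other endoderm regulators were highest at day 12 and did not pass. Sox17 had 16.8 CPM at day 8 and 503 CPM at day 12, against 16.6 and 9.83 CPM in DKO ES cells. Sox17 had a log2 fold change of 4.30 ± 1.41 (adjusted p = 0.082). Gata6 had 22.4 and 129 CPM in differentiated cells and 22.1 and 15.4 CPM in ES cells (log2 fold change 2.01 ± 0.84, adjusted p = 0.15). Gata4 had 71.02 and 686 CPM in differentiated cells and 127 and 101 CPM in ES cells (log2 fold change 1.73 ± 0.97, adjusted p = 0.27). At day 8 Sox17 and Gata6 were next to the higher ES library and Gata4 was below both. For Gata4 and Gata6 the WT rise was larger: the change in DKO minus that in WT was -4.91 ± 1.41, adjusted p = 0.029 for Gata4 and -5.72 ± 1.24, adjusted p = 0.011 for Gata6, and DKO ES cells started at 127 and 101 CPM of Gata4 against 8.31 and 9.12 CPM in WT ES cells. The Gata6 difference did not hold without WT ES replicate 1 or 2 (adjusted p = 0.05 and 0.052), nor the Gata4 difference without any WT or DKO ES library (0.064 to 0.097) or without WT day 12 (0.086). With day 12 as the only differentiated library 9 of the 12 regulators and 13 of the 20 products rose, and with day 8 as the only one 1 and 3 rose and 0 and 1 fell. Of the 13 calls, Hnf4a, Cubn, Lrp2 and Mttp held with day 8 alone (adjusted p = 0.066 to 0.24 for the other 9). All 13 calls among these regulators and products were lost without the first DKO ES library (adjusted p = 0.082 to 0.2) and without the second (0.11 to 0.29), while each member's differentiated readings stayed above both ES readings.

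**Figure D3:**
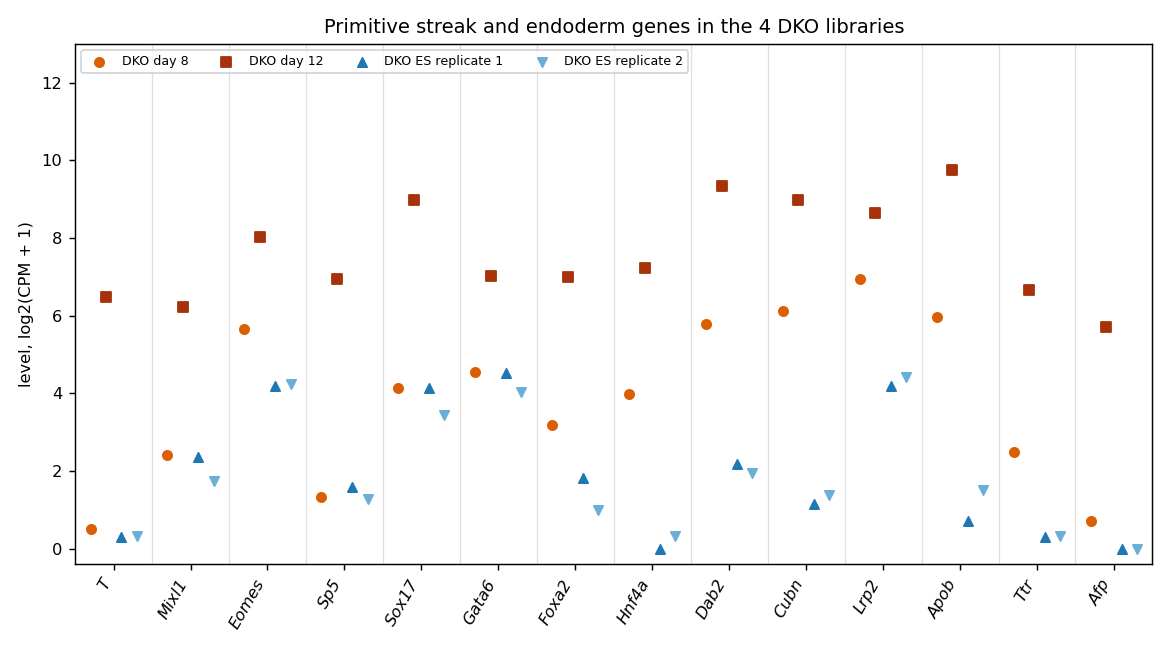
Levels as log2(CPM + 1) of primitive streak genes (T, Mixl1, Eomes, Sp5) and endoderm genes in the 2 differentiated and 2 ES libraries of the DKO line, 1 symbol per library. Day 12 is the highest library for all 14 genes, and day 8 lies beside the ES libraries for T, Mixl1, Sp5, Sox17 and Gata6.

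Primitive streak genes were a day 12 signal. Of 19 tested, Gsc rose and Cdx1 fell with the days as replicates, and with day 12 as the only differentiated library 10 rose and 1 fell, against 0 and 1 with day 8. T (brachyury), the T-box factor of the streak, had 0.432 CPM at day 8 and 88.6 CPM at day 12, against 0.224 and 0.245 CPM in DKO ES cells. T had a log2 fold change of 7.54 ± 2.23 (adjusted p = 0.063). Day 8 was as low as the ES libraries, and day 12 stood alone. Mixl1, a homeobox gene of streak mesendoderm, had 4.37 CPM at day 8 and 73.96 CPM at day 12, against 4.12 and 2.33 CPM in DKO ES cells. Mixl1 had a log2 fold change of 3.60 ± 1.43 (adjusted p = 0.13). Eomes, which directs mesendoderm, had 49.3 CPM at day 8 and 262 CPM at day 12, against 17.4 and 18.03 CPM in DKO ES cells. Eomes had a log2 fold change of 3.13 ± 0.93 (adjusted p = 0.064). Against ES cells day 12 alone gave a log2 fold change of 8.53, adjusted p = 0.0099 for T and 3.88, adjusted p = 0.027 for Eomes. Of the 19 genes, 11 reached the filter only with the help of WT or KO libraries, Gsc, T and Mixl1 among them. The counts for this list therefore follow in part from the filter. Gsc, a homeobox gene of the organizer, had 1.47 and 26.6 CPM in differentiated cells and 0.493 and 0.489 CPM in ES cells (log2 fold change 4.82 ± 1.24, adjusted p = 0.042). Cdx1, a caudal gene of the posterior streak, went the other way with 24.9 CPM at day 8 and 12.4 CPM at day 12, against 256 and 154 CPM in DKO ES cells. Cdx1 had a log2 fold change of -3.45 ± 0.47 (adjusted p = 0.0057), and it held without either DKO ES library, unlike Gsc (adjusted p = 0.17 and 0.25). Leaving out day 12 also ended the Gsc call (0.25).

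Basement membrane genes were mostly higher at day 12 than at day 8 (10 of 15 at least 4-fold, median log2 ratio 2.43 on a CPM + 1 scale), and epithelial genes were not (1 of 10, median -0.09). Col4a1, a chain of the collagen that parietal endoderm lays down, had 133 CPM at day 8 and 1510 CPM at day 12, against 42.4 and 46.9 CPM in DKO ES cells. Col4a1 had a log2 fold change of 4.20 ± 1.25 (adjusted p = 0.063). Krt19, a simple-epithelium keratin, had 23.3 and 46.4 CPM in differentiated cells and 4.93 and 4.41 CPM in ES cells (log2 fold change 2.90 ± 0.60, adjusted p = 0.023). Srgn, a proteoglycan core protein, had 20.5 and 115 CPM in differentiated cells and 0.537 and 0.979 CPM in ES cells (log2 fold change 6.46 ± 1.71, adjusted p = 0.046). Cldn6, a tight junction protein, had 91.7 and 582 CPM in differentiated cells and 52.7 and 32.5 CPM in ES cells (log2 fold change 2.98 ± 0.80, adjusted p = 0.048). These were the only calls among 15 parietal endoderm and basement membrane genes (2 rose) and 10 epithelial genes (1 rose). With day 12 as the only differentiated library 7 and 2 rose, and with day 8 as the only one 0 and 0. The 3 calls were lost without the first DKO ES library (adjusted p = 0.11 to 0.2), without the second (0.18 to 0.28) and without day 12 (0.059 to 0.24).

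Mesenchyme genes, which are among the highest in differentiated WT cells, stayed near their ES level in the DKO line. Summed over 8 fibroblast and mesenchyme markers (Col1a1, Col1a2, Col3a1, Thy1, Twist2, Postn, Dcn and Lum) the level was 17.3 and 7.98 CPM in differentiated DKO cells and 5.87 and 7.34 CPM in DKO ES cells, against 4054 and 2595 CPM in differentiated WT cells. Of 23 tested mesenchyme, smooth muscle and fibroblast genes 1 rose in DKO cells (Cnn1, calponin, with 1.34 and 1.64 CPM in differentiated cells and 0.179 and 0.489 CPM in ES cells; log2 fold change 2.13 ± 0.51, adjusted p = 0.034). 20 rose in WT cells, and the change in DKO fell short of that in WT at 18. Of the 23, 15 reached the filter only with the help of WT or KO libraries, where they are high, so these counts follow in part from the filter. Col1a1, the main chain of type I collagen, had 0.821 CPM at day 8 and 1.25 CPM at day 12, against 0.717 and 1.10 CPM in DKO ES cells, and 1361 and 955 CPM in differentiated WT cells and 1.70 and 1.41 CPM in WT ES cells. Its DKO change minus its WT change was -9.35 ± 1.29, adjusted p = 0.0034, and for Col3a1 it was -13.18 ± 3.26, adjusted p = 0.017, which was lost without WT ES replicate 1 (adjusted p = 0.063), WT ES replicate 2 (0.058), DKO ES replicate 2 (0.16) or DKO day 8 (0.051). Twist2, a mesenchymal bHLH factor, had 1.25 and 1.37 CPM in differentiated cells and 2.60 and 1.63 CPM in ES cells in the DKO line and 234 and 99.9 CPM in differentiated WT cells (difference of changes -10.63 ± 0.997, adjusted p = 0.0019). Hand1, a bHLH factor of extraembryonic and lateral mesoderm, had 1.81 and 7.98 CPM in differentiated cells and 3.99 and 3.79 CPM in ES cells, against 843 and 373 CPM in differentiated WT cells (-9.34 ± 0.98, adjusted p = 0.0019).

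Markers of red blood cells and heart muscle stayed low in DKO cells, while a few blood and vessel regulators moved. The 5 blood markers Hba-x, Hbb-bh1, Hbb-y, Gata1 and Klf1 summed to 4.24 and 5.32 CPM in differentiated DKO cells and 3.05 and 3.02 CPM in DKO ES cells, against 4046 and 59.2 CPM in differentiated WT cells, and the embryonic globins Hba-x and Hbb-bh1 had 0 reads in all 4 DKO libraries. Those genes passed the filter through differentiated WT and KO cells alone. The 6 heart markers summed to 15.3 and 7.51 CPM, against 14.3 and 10.8 CPM in DKO ES cells and 81.7 and 42.4 CPM in differentiated WT cells. Of 25 blood and endothelium genes 2 rose and 1 fell in DKO cells and 21 rose in WT cells, and 17 of the 25 reached the filter only with the help of WT or KO libraries. With day 12 as the only differentiated library 4 rose, Runx1 (log2 fold change 2.87, adjusted p = 0.0024) and Kdr (4.75, adjusted p = 0.025) besides Flt1 and Etv2, and with day 8 as the only one 2 did. Flt1, a VEGF receptor, had 21.7 CPM at day 8 and 44.98 CPM at day 12, against 1.70 and 1.96 CPM in DKO ES cells. Flt1 had a log2 fold change of 4.18 ± 0.71 (adjusted p = 0.011). Etv2, the factor that starts the blood vessel lineage, had 4.50 and 1.80 CPM in differentiated cells and 0 and 0.0816 CPM in ES cells, a ratio of 72.1 over 2 ES reads (19.6 to 601). Kdr, the receptor of their common progenitor, had 1.51 CPM at day 8 and 24.9 CPM at day 12, against 0.94 and 0.897 CPM in DKO ES cells. Kdr had a log2 fold change of 3.84 ± 1.30 (adjusted p = 0.09), a day 12 reading below the 287 and 41.6 CPM of differentiated WT cells. Gata2, a factor of blood progenitors, fell to 11.3 and 11.6 CPM against 65.8 and 49.97 CPM (log2 fold change -2.33 ± 0.60, adjusted p = 0.043) and rose in WT cells, and the 2 changes differed by -6.49 ± 0.88, adjusted p = 0.0034. Of 16 tested cardiac and skeletal muscle genes 1 fell in DKO cells, the calcium pump gene Atp2a2 with 521 and 410.5 CPM in differentiated cells and 921 and 1186 CPM in ES cells (log2 fold change -1.18 ± 0.22, adjusted p = 0.017), against 10 that rose in WT cells. Of these 16, 12 reached the filter only with the help of WT or KO libraries, so the muscle counts follow in part from the filter. Of the 5 calls named here and for mesenchyme, 1 (Atp2a2) held without the first DKO ES library (adjusted p = 0.082 to 0.15 for the other 4) and 0 without the second (0.077 to 0.16). With day 8 as the only differentiated library Gata2, Cnn1 and Atp2a2 were lost (0.067 to 0.12), and with day 12 as the only one Gata2 (0.11).

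The Hox clusters, which pattern the trunk, were not raised. Of 39 Hox genes 31 were tested, and 0 were called in DKO cells by edgeR (median log2 fold change -0.13, or -0.14 with genes at 0 reads in a group set at their bound; 8 with an unadjusted p under 0.05, and 0 higher and 2 lower by DESeq2). In WT cells 29 of the 31 rose (median 5.46), and the change differed between DKO and WT cells at 23, each time lower in DKO. No Hox gene exceeded 32 CPM in a DKO library. Many of the 31 passed the filter through differentiated WT cells, where they are high, so this count is not a measure of all Hox genes.

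Imprinted genes, many of which are growth regulators of mesoderm and placenta, had few calls with the days as replicates: of 31 tested 0 rose and 2 fell in DKO cells, and 21 rose and 1 fell in WT cells. Taking day 12 alone, 6 rose and 0 fell, among them Igf2 (log2 fold change 2.99, adjusted p = 0.03) and Magel2 (3.33, adjusted p = 0.044), and with day 8 as the only one 0 rose and 1 fell. Of the 31, 12 reached the filter only with the help of WT or KO libraries, H19 and Dlk1 among them, so the counts in WT and DKO are not a fair comparison for all of them. Igf2, the fetal growth factor, had 27.5 CPM at day 8 and 779 CPM at day 12, against 87.95 and 108 CPM in DKO ES cells. Igf2 had a log2 fold change of 2.04 ± 1.15 (adjusted p = 0.27), against 14320 and 16160 CPM in differentiated WT cells. H19, the noncoding RNA beside it, had 5.06 and 3.17 CPM in differentiated cells and 1.34 and 2.61 CPM in ES cells, against 642 and 769.5 CPM in differentiated WT cells, and Dlk1, a Notch-family ligand, had 3.15 and 30.2 CPM in differentiated cells and 3 and 3.14 CPM in ES cells, against 2487 and 2286 CPM. The change in DKO minus that in WT was -7.43 ± 1.74, adjusted p = 0.014 for Igf2, -7.76 ± 0.84, adjusted p = 0.0021 for H19 and -6.37 ± 1.86, adjusted p = 0.03 for Dlk1. The Igf2 difference did not hold without WT ES replicate 1 or 2 (adjusted p = 0.064 and 0.065), nor the Dlk1 difference without any WT or DKO ES library (0.07 to 0.1), WT day 12 (0.052) or DKO day 8 (0.068). Among DKO libraries Igf2 was highest at day 12, where yolk sac genes were highest too (7 yolk sac markers summed to 1798 CPM at day 12 and 186 CPM at day 8, against 21.4 and 22.5 CPM in DKO ES cells); the part of those cells in it was not tested. Grb10, an adaptor that restrains insulin signalling, fell (402 and 482 CPM in differentiated cells and 894 and 1158 CPM in ES cells; log2 fold change -1.21 ± 0.30, adjusted p = 0.039). Impact, a translation regulator, was the other that fell (98.2 and 125 CPM in differentiated cells and 171 and 194 CPM in ES cells; log2 fold change -0.71 ± 0.19, adjusted p = 0.045). Neither call held without the first DKO ES library (adjusted p = 0.089 to 0.1), without the second (0.23 to 0.24), without day 8 (0.11 to 0.14) or without day 12 (0.054 to 0.074).

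**Figure D4:**
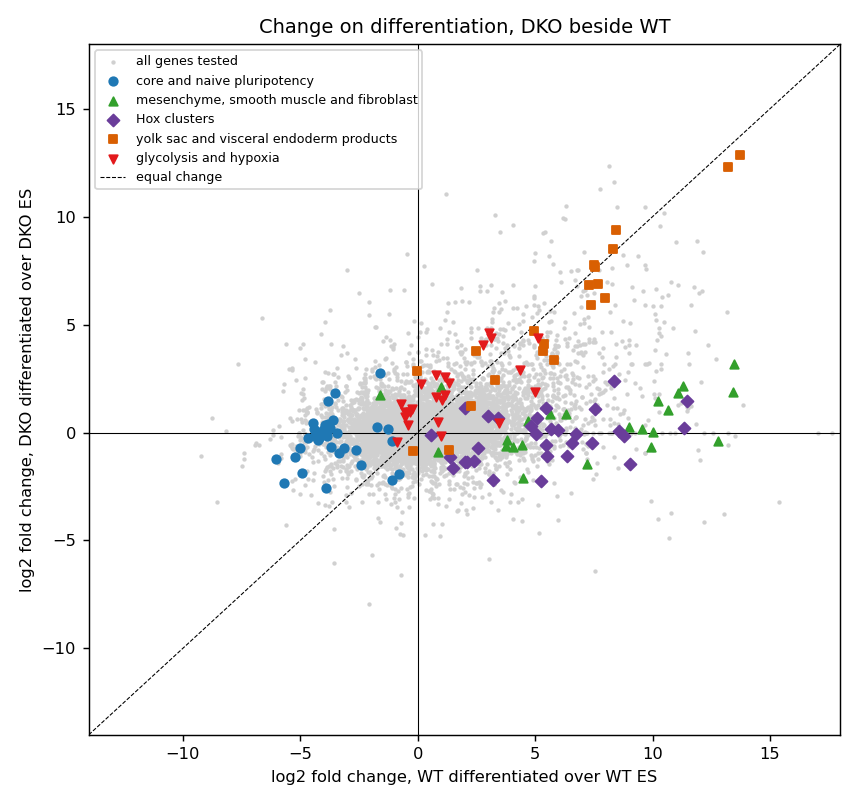
Log2 fold change on differentiation in the DKO line (vertical) against that in WT (horizontal) for each of 13429 tested genes, with 5 gene lists in colour; the 2 axes share no library, and values of genes with 0 reads in a group depend on the fit's prior count. Pluripotency genes spread along the left near a DKO change of 0, mesenchyme and Hox genes along the right near 0, yolk sac products lie near the line of equal change, and most glycolysis and hypoxia genes lie above 0.

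Glycolysis and hypoxia genes had the largest share of rises among the 32 lists, at 13 of 23 tested with 0 falls (median log2 fold change 1.63). Cells switch on these genes through the HIF transcription factors when oxygen is short, and glycolytic flux is also a known property of primed pluripotent cells. Bnip3, a mitophagy receptor and a standard HIF target, had 101 CPM at day 8 and 46.1 CPM at day 12, against 2.96 and 3.10 CPM in DKO ES cells. Bnip3 had a log2 fold change of 4.60 ± 0.42 (adjusted p = 0.0012). Ldha, which makes lactate, had 1001 CPM at day 8 and 664 CPM at day 12, against 194 and 154 CPM in DKO ES cells. Ldha had a log2 fold change of 2.26 ± 0.22 (adjusted p = 0.0014). Tpi1, triose phosphate isomerase, had 526 CPM at day 8 and 381 CPM at day 12, against 107 and 75.5 CPM in DKO ES cells. Tpi1 had a log2 fold change of 2.31 ± 0.22 (adjusted p = 0.0014). In all 3 the order was day 8, then day 12, then the ES libraries, with no overlap. WT ES cells had 749 and 784 CPM of Ldha, far above the DKO ES level, and the change in DKO exceeded that in WT by 2.11 ± 0.30, adjusted p = 0.0035.

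Other steps of the pathway moved the same way. Slc2a1, a glucose importer, had 1968 CPM at day 8 and 1083 CPM at day 12, against 279 and 232 CPM in DKO ES cells. Slc2a1 had a log2 fold change of 2.58 ± 0.32 (adjusted p = 0.0045). Pfkl, a phosphofructokinase at the committed step, had 609.5 and 304 CPM in differentiated cells and 80.6 and 65.5 CPM in ES cells (log2 fold change 2.65 ± 0.30, adjusted p = 0.0027). Pgk1 had 298 and 146 CPM in differentiated cells and 76.9 and 65.96 CPM in ES cells (log2 fold change 1.63 ± 0.31, adjusted p = 0.018). Aldoa had 1569 and 645 CPM in differentiated cells and 421 and 367 CPM in ES cells (log2 fold change 1.49 ± 0.38, adjusted p = 0.039). Gpi1 had 956 and 373 CPM in differentiated cells and 254 and 149.9 CPM in ES cells (log2 fold change 1.72 ± 0.45, adjusted p = 0.046). Pgam1 had 688 and 443 CPM in differentiated cells and 305 and 282 CPM in ES cells (log2 fold change 0.95 ± 0.22, adjusted p = 0.03); these 5 are enzymes of the chain between glucose phosphate and pyruvate.

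Among the regulators, Egln3, the prolyl hydroxylase that marks HIF for decay and is itself induced by it, had 301 CPM at day 8 and 83.3 CPM at day 12, against 9.40 and 9.06 CPM in DKO ES cells. Egln3 had a log2 fold change of 4.38 ± 0.58 (adjusted p = 0.0056). Adm, a vasodilator peptide, had 14.1 and 3.44 CPM in differentiated cells and 0.537 and 0.285 CPM in ES cells (log2 fold change 4.40 ± 0.75, adjusted p = 0.011). Ankrd37 had 16.7 and 5.51 CPM in differentiated cells and 0.717 and 0.612 CPM in ES cells (log2 fold change 4.05 ± 0.57, adjusted p = 0.0059). P4ha1, which hydroxylates collagen, had 134 and 163 CPM in differentiated cells and 20.2 and 19.8 CPM in ES cells (log2 fold change 2.89 ± 0.40, adjusted p = 0.0059). P4ha1 was the only one of the 13 that was higher at day 12 than at day 8. Slc2a3, another glucose importer, and the hexokinase Hk2 did not pass, with 3717 and 4142 CPM in differentiated cells and 4286 and 4386 CPM in ES cells and 558 and 283 CPM in differentiated cells and 526 and 604 CPM in ES cells. With day 8 as the only differentiated library 19 of the 23 rose, and with day 12 as the only one 10 rose and 1, which was Hk2, fell. Of the 13, 5 held without the first DKO ES library (adjusted p = 0.052 to 0.14 for the other 8) and 3 without the second (0.051 to 0.28 for the other 10), namely Bnip3, Ldha and Tpi1 in both. With day 12 alone Gpi1, Aldoa and Pgam1 were lost (0.078 to 0.18). In WT cells 13 members rose and 1 fell, and the change in DKO was above that in WT at 8 members and below it at 3.

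**Figure D5:**
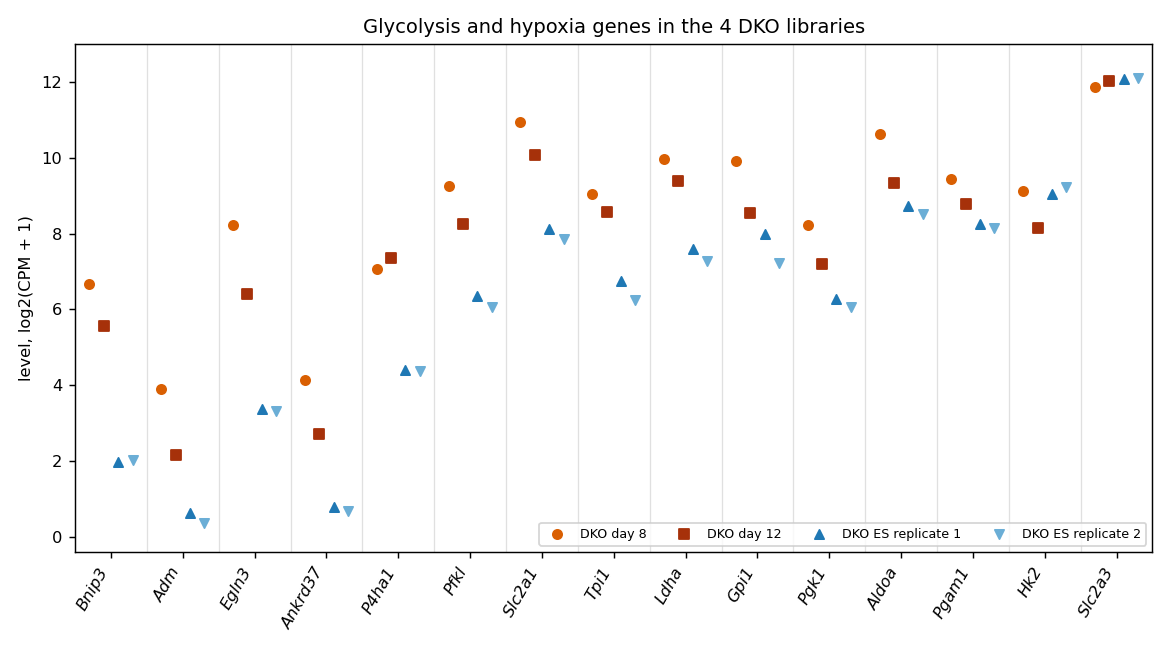
Levels as log2(CPM + 1) of the 13 glycolysis and hypoxia genes that rose in DKO cells, with Hk2 and Slc2a3, which did not, in the 2 differentiated and 2 ES libraries, 1 symbol per library. Day 8 is the highest library for 12 of the 13, and both days lie above both ES libraries for all 13.

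The promoters of Bnip3, Ldha and Tpi1, the 3 calls that held without either ES library, are shown because HIF binds the core motifs ACGTG and GCGTG (RefSeq, GRCm38.p6; 250 bases before to 50 after the start, on the gene's strand). Capitals mark each match on either strand; a CACGTG is 2 overlapping matches.
Bnip3, chr7:138909457-138909756, minus strand: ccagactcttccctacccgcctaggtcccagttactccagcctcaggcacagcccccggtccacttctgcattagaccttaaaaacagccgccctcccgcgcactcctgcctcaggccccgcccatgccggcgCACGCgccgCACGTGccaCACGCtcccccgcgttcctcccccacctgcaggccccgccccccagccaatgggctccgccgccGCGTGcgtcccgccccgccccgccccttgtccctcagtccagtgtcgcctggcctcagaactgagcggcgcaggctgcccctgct
Ldha, chr7:46845554-46845853, plus strand: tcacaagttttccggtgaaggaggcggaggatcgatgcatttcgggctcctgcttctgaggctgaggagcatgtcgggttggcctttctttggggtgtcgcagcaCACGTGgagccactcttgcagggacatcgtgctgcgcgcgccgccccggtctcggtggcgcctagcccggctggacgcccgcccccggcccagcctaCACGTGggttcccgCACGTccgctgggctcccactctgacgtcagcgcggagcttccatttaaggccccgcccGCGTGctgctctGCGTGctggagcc
Tpi1, chr6:124814109-124814408, minus strand: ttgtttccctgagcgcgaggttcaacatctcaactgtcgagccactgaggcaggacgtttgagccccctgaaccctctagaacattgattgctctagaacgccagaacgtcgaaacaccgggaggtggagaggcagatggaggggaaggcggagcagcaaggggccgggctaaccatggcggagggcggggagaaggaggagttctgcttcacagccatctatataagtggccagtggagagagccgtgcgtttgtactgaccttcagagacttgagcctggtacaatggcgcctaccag
Bnip3 held 5 matches, Ldha 7 and Tpi1 0. Of 27025 genes with a RefSeq promoter, 11836 (43.8%) held at least 1 match, as did 10 of the 13 that rose (76.9%) and 5 of 8 that did not pass and had a promoter entry (62.5%). A match is a description of the letters and not a binding site.

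Several of the largest falls were of genes that stood higher in DKO than in WT ES cells. Ripply3, a co-repressor that acts with T-box factors, had 2.21 CPM at day 8 and 1.68 CPM at day 12, against 495 and 471 CPM in DKO ES cells. Ripply3 had a log2 fold change of -7.96 ± 0.62 (adjusted p = 0.00075), against 2.82 and 0.599 CPM in differentiated WT cells and 7.89 and 6.66 CPM in WT ES cells. It was the largest fall among called genes with a group mean of at least 5 RPKM, and the DKO change was below the WT change by -5.88 ± 0.74, adjusted p = 0.0032. Aqp3, a water and glycerol channel, had 35.7 CPM at day 8 and 22.9 CPM at day 12, against 814 and 702 CPM in DKO ES cells. Aqp3 had a log2 fold change of -4.69 ± 0.61 (adjusted p = 0.0056). Pros1, the anticoagulant protein S, had 16.1 and 27.2 CPM in differentiated cells and 201 and 236 CPM in ES cells (log2 fold change -3.33 ± 0.45, adjusted p = 0.0056). Pigz, an enzyme of GPI anchors, had 1.43 and 1.02 CPM in differentiated cells and 39.5 and 25.4 CPM in ES cells (log2 fold change -4.73 ± 0.59, adjusted p = 0.0046). Tll1, a metalloprotease that frees BMP, had 9.38 and 4.81 CPM in differentiated cells and 87.7 and 95.04 CPM in ES cells (log2 fold change -3.69 ± 0.65, adjusted p = 0.013). Trpm1, a cation channel, had 0.475 and 6.26 CPM in differentiated cells and 69.05 and 60.5 CPM in ES cells (log2 fold change -4.26 ± 0.87, adjusted p = 0.022). In WT ES cells Aqp3 read 38.7 and 38.8 CPM, Pros1 21.1 and 19.04 CPM and Tll1 3.53 and 2.90 CPM, each below the DKO ES cells. Gpnmb, a membrane glycoprotein, had 1.73 and 3.95 CPM in differentiated cells and 92.2 and 67.2 CPM in ES cells (log2 fold change -4.80 ± 1.24, adjusted p = 0.042). Sfpi1 (PU.1), a factor of myeloid cells, had 0.778 and 0.782 CPM in differentiated cells and 16.6 and 9.87 CPM in ES cells (log2 fold change -4.07 ± 0.86, adjusted p = 0.023). S100a13, a calcium-binding protein, had 1.21 and 4.62 CPM in differentiated cells and 37.2 and 24.3 CPM in ES cells (log2 fold change -3.39 ± 0.56, adjusted p = 0.011). The 12 largest falls included Cdx1, the homeobox gene Tlx3 (2.51 and 2.54 CPM in differentiated cells and 34.7 and 17.8 CPM in ES cells; log2 fold change -3.38 ± 0.48, adjusted p = 0.0063) and 2210409E12Rik (5.79 and 9.74 CPM in differentiated cells and 98.2 and 65.3 CPM in ES cells; log2 fold change -3.39 ± 0.47, adjusted p = 0.0059) as well.

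Of 14 tested neural genes 0 rose and 2 fell with the days as replicates. Neurog1 was among 3 of the 14 that reached the filter only with the help of WT or KO libraries. Taking day 12 as the only differentiated library, 2 rose, Nes (log2 fold change 1.20, adjusted p = 0.032) and Sox9 (2.53, adjusted p = 0.027), and 1 fell, and with day 8 as the only one 0 rose and 2 fell. Sox1, the marker of early neurectoderm, had 102 CPM at day 8 and 104 CPM at day 12, against 484 and 435 CPM in DKO ES cells. Sox1 had a log2 fold change of -2.15 ± 0.19 (adjusted p = 0.0012). Neurog1, a proneural bHLH gene, had 0.475 and 0.626 CPM in differentiated cells and 4.21 and 2.45 CPM in ES cells (log2 fold change -2.58 ± 0.53, adjusted p = 0.022). Of these 13 falls, 7 held without the first DKO ES library (Ripply3, Pigz, Aqp3, 2210409E12Rik, Tlx3, Pros1 and Sox1; adjusted p = 0.06 to 0.13 for the other 6), and the same ones but Pros1 held without the second (0.051 to 0.16 for the other 7). With day 12 as the only differentiated library Gpnmb, Sfpi1 and Neurog1 were lost (0.061 to 0.13), and with day 8 as the only one Gpnmb and Sfpi1 (0.068 to 0.089).

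Genes of the amino acid and stress response fell more than they rose, 8 against 1 of 29 (median log2 fold change -0.67). Many of them are switched on by the factor ATF4 when amino acids run short. Over all genes tested 4.37% fell and 5.55% rose in DKO cells. In KO cells 11 of the 29 fell and 2 rose (median -0.55), and in WT cells 10 fell and 10 rose (median -0.39). The DKO change was below the KO change at 2 members and above it at 1. It was below the WT change at 10 and above it at 5. Nupr1, a stress-induced nuclear protein, had 30.4 CPM at day 8 and 25.8 CPM at day 12, against 179 and 159 CPM in DKO ES cells. Nupr1 had a log2 fold change of -2.59 ± 0.25 (adjusted p = 0.0014). Aldh1l2, a mitochondrial folate enzyme, had 11.4 and 16.8 CPM in differentiated cells and 71.3 and 75.9 CPM in ES cells (log2 fold change -2.38 ± 0.62, adjusted p = 0.043). Mthfd2, another, had 166 and 144 CPM in differentiated cells and 265 and 264 CPM in ES cells (log2 fold change -0.77 ± 0.15, adjusted p = 0.019). Chac1, which degrades glutathione, had 177 and 149.8 CPM in differentiated cells and 360 and 287 CPM in ES cells (log2 fold change -0.98 ± 0.19, adjusted p = 0.018). Asns, asparagine synthetase, had 291 and 277 CPM in differentiated cells and 471 and 484 CPM in ES cells (log2 fold change -0.75 ± 0.20, adjusted p = 0.047). Cebpg, a partner of ATF4, had 97.5 and 109 CPM in differentiated cells and 188 and 264 CPM in ES cells (log2 fold change -1.14 ± 0.20, adjusted p = 0.014). Gdf15, a stress hormone, had 18.9 and 22.1 CPM in differentiated cells and 80.02 and 45.4 CPM in ES cells (log2 fold change -1.61 ± 0.35, adjusted p = 0.025). Cars, a tRNA synthetase, had 67.95 and 53.97 CPM in differentiated cells and 96.5 and 103 CPM in ES cells (log2 fold change -0.71 ± 0.18, adjusted p = 0.043). The one that rose was Hspa5, the chaperone of the endoplasmic reticulum (538 and 657 CPM in differentiated cells and 299.8 and 354 CPM in ES cells; log2 fold change 0.87 ± 0.20, adjusted p = 0.032). In each fall both differentiated libraries lay below both ES libraries. Nupr1 and Cebpg held without the first DKO ES library (adjusted p = 0.079 to 0.15 for the other 7) and Nupr1 without the second (0.065 to 0.22 for the other 8). With day 8 as the only differentiated library 2 of the 9 held (0.06 to 0.16 for the other 7), and with day 12 as the only one 6 did (0.073 to 0.13 for the other 3).

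Signalling lists moved in part, and more at day 12 than at day 8. In the Wnt list 7 members, and in the BMP list 3, reached the filter only with the help of WT or KO libraries. Dkk1, Sp5 and Bmp2 were among these, so the counts below follow in part from the filter. Of 19 canonical Wnt targets 5 rose, Lef1 among them, and 1, Cdx1, fell. With day 12 as the only differentiated library 10 rose and 1 fell, and with day 8 as the only one 3 rose and 2 fell. Axin2, a feedback inhibitor of Wnt signalling, was lower than in ES cells with day 8 alone (log2 fold change -0.83, adjusted p = 0.049) and higher with day 12 alone (1.11, adjusted p = 0.0098). Dkk1, a secreted Wnt inhibitor, had 2.98 CPM at day 8 and 50.8 CPM at day 12, against 0.224 and 0.163 CPM in DKO ES cells. Dkk1 had a log2 fold change of 7.09 ± 1.54 (adjusted p = 0.025). Ccnd2, cyclin D2, had 50.8 and 140.4 CPM in differentiated cells and 8.15 and 11.01 CPM in ES cells (log2 fold change 3.32 ± 0.73, adjusted p = 0.026). Myc, the growth factor-induced transcription factor, had 80.96 CPM at day 8 and 60.8 CPM at day 12, against 25.3 and 21.3 CPM in DKO ES cells. Myc had a log2 fold change of 1.61 ± 0.18 (adjusted p = 0.0028). WT ES cells had 216 and 222 CPM, and Myc fell in WT cells, so that the changes differed by 2.80 ± 0.26, adjusted p = 0.0019. Tcf7, a partner of beta-catenin, had 84.1 and 64.03 CPM in differentiated cells and 32.8 and 32.7 CPM in ES cells (log2 fold change 1.18 ± 0.32, adjusted p = 0.0495). Sp5, a direct Wnt target, had 1.51 and 123 CPM in differentiated cells and 2.02 and 1.43 CPM in ES cells (log2 fold change 5.17 ± 1.49, adjusted p = 0.059), above the ES libraries at day 12 only. Of 14 BMP ligands and targets 2 rose and 1 fell, with 5 and 1 for day 12 alone and 0 and 1 for day 8 alone. Bmp2, a ligand, had 2.21 and 24.99 CPM in differentiated cells and 1.16 and 1.22 CPM in ES cells (log2 fold change 3.50 ± 0.95, adjusted p = 0.049), and the inhibitor Smad6 had 22.2 and 57.2 CPM in differentiated cells and 13.2 and 12.7 CPM in ES cells (log2 fold change 1.62 ± 0.44, adjusted p = 0.0495). Bmp4, the ligand that fell, had 90.2 and 27.2 CPM in differentiated cells and 246 and 215 CPM in ES cells (log2 fold change -1.97 ± 0.52, adjusted p = 0.046). Lef1 and Cdx1, whose values are given above, held without either DKO ES library and are left out of the 7 calls counted next. Of the 7 calls named here Myc alone held without the first DKO ES library (adjusted p = 0.13 to 0.19 for the other 6), without the second (0.17 to 0.26) and with day 8 as the only differentiated library (0.057 to 0.31), and with day 12 as the only one all but Tcf7 held (0.14).

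Of 21 tested genes that answer interferon or double-stranded RNA, 6 rose and 1 fell. The calls did not include the usual leading members Isg15 and Ifit1, which read at most 0.313 CPM in the DKO libraries. Of the 21, 9 reached the filter only with the help of WT or KO libraries. Psmb8, Oasl2 and Ifit2, which rose, are among these 9, and their calls were lost in limma on log2(RPKM + 1). Ifitm1, a membrane protein that is also a marker of early mesoderm and germ cells in mice, had 54.8 CPM at day 8 and 29.3 CPM at day 12, against 3.27 and 2.08 CPM in DKO ES cells. Ifitm1 had a log2 fold change of 3.97 ± 0.59 (adjusted p = 0.0069). Bst2, tetherin, had 43.3 and 114 CPM in differentiated cells and 13.6 and 11.6 CPM in ES cells (log2 fold change 2.64 ± 0.60, adjusted p = 0.028). Irf1, an interferon regulatory factor, had 55.7 and 41.7 CPM in differentiated cells and 16.4 and 14.7 CPM in ES cells (log2 fold change 1.65 ± 0.37, adjusted p = 0.028). Psmb8, an immunoproteasome subunit, had 1.17 and 3.87 CPM in differentiated cells and 0.0448 and 0.0408 CPM in ES cells, a ratio of 60.6 over 2 ES reads (16.4 to 506). Oasl2 had 3.59 and 3.17 CPM in differentiated cells and 0.269 and 0.0816 CPM in ES cells (log2 fold change 4.25 ± 0.99, adjusted p = 0.032). Ifit2 had 1.34 and 1.25 CPM in differentiated cells and 0.179 and 0.0816 CPM in ES cells (log2 fold change 3.28 ± 0.84, adjusted p = 0.042). Ddx58, the RIG-I sensor of double-stranded RNA, fell, with 7.61 CPM at day 8 and 12.9 CPM at day 12, against 47.5 and 56.9 CPM in DKO ES cells. Ddx58 had a log2 fold change of -2.34 ± 0.35 (adjusted p = 0.0072). Without the first DKO ES library Ddx58 held (adjusted p = 0.052 to 0.13 for the other 6), and without the second none did (0.072 to 0.26). Bst2, Oasl2 and Ifit2 were lost with day 8 as the only differentiated library (0.055 to 0.096), and with day 12 as the only one Irf1, Oasl2 and Ifit2 (0.054 to 0.078).

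Cell cycle, chromatin and housekeeping lists had few calls in DKO cells. By edgeR 9 of 37 replication genes, 12 of 34 heterochromatin factors and 8 of 31 architecture genes had an unadjusted p under 0.05. Over all 13429 genes tested 3911 did. Of 37 replication genes 0 rose and 2 fell (Gins3, of the replicative helicase, with 28.8 and 29.3 CPM in differentiated cells and 59.9 and 72.8 CPM in ES cells, log2 fold change -1.19 ± 0.18, adjusted p = 0.0075; Orc6, of the origin complex, with 55.1 and 51.9 CPM in differentiated cells and 88.98 and 93.7 CPM in ES cells, log2 fold change -0.77 ± 0.20, adjusted p = 0.041), against 30 that fell in WT cells. Among 34 heterochromatin and silencing factors Kdm4b, a histone H3 lysine 9 demethylase, rose (128 and 95.2 CPM in differentiated cells and 54.6 and 48.5 CPM in ES cells; log2 fold change 1.12 ± 0.22, adjusted p = 0.018). Eed, of Polycomb complex 2, fell (119 and 86.4 CPM in differentiated cells and 224 and 250.2 CPM in ES cells; log2 fold change -1.21 ± 0.24, adjusted p = 0.019). Among 31 genome architecture genes Satb1 rose (25.6 and 19.13 CPM in differentiated cells and 9.31 and 9.54 CPM in ES cells; log2 fold change 1.25 ± 0.26, adjusted p = 0.023) and the condensin gene Smc2 fell (132 and 116 CPM in differentiated cells and 222 and 267 CPM in ES cells; log2 fold change -0.98 ± 0.25, adjusted p = 0.04). Of 20 germline genes 2 rose, of which Kit is the stem cell factor receptor (50.96 and 42.5 CPM in differentiated cells and 8.46 and 11.2 CPM in ES cells; log2 fold change 2.25 ± 0.30, adjusted p = 0.0056). The other, Dazl, is an RNA-binding protein of germ cells (4.15 and 4.26 CPM in differentiated cells and 0.582 and 0.694 CPM in ES cells, log2 fold change 2.71 ± 0.50, adjusted p = 0.015). Among the 20 germline genes 9, with Dazl, reached the filter only with the help of WT or KO libraries. Of these 8 calls Gins3 held without the first DKO ES library (adjusted p = 0.052 to 0.12 for the other 7), and 0 held without the second (0.051 to 0.23). With day 8 as the only differentiated library Orc6, Eed and Smc2 were lost (0.075 to 0.11), and with day 12 as the only one Orc6, Smc2 and Satb1 (0.062 to 0.077).

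In the remaining lists calls with the days as replicates were few, while 9.92% of all genes tested were called. On a log2(CPM + 1) scale p53 targets had a median change against ES of -0.49 at day 8 and 0.08 at day 12. Cholesterol synthesis genes had 0.71 and -0.04, and trophoblast genes 0.39 and 1.04. Of the 11 trophoblast genes 4 were at least 4-fold higher at day 12 than at day 8, and 0 were lower. Of 29 p53 targets Bbc3, the apoptosis factor PUMA, rose (239 and 323 CPM in differentiated cells and 134 and 80.6 CPM in ES cells; log2 fold change 1.39 ± 0.32, adjusted p = 0.03). Gadd45g rose as well (46.2 and 11.9 CPM in differentiated cells and 2.96 and 1.59 CPM in ES cells; log2 fold change 3.67 ± 0.67, adjusted p = 0.015), and Perp fell (18.1 and 47.8 CPM in differentiated cells and 80.7 and 93.04 CPM in ES cells; log2 fold change -1.40 ± 0.37, adjusted p = 0.045). Dhcr7, of the last step of cholesterol synthesis, rose (62.5 and 36.3 CPM in differentiated cells and 19.8 and 15.5 CPM in ES cells; log2 fold change 1.49 ± 0.30, adjusted p = 0.022). Of 14 immediate early genes Ier3 rose beside Myc (55.5 and 14.1 CPM in differentiated cells and 3.67 and 2.49 CPM in ES cells; log2 fold change 3.50 ± 0.73, adjusted p = 0.023), and of 11 trophoblast genes Tead4 fell (36.4 and 43.7 CPM in differentiated cells and 86.8 and 86.2 CPM in ES cells; log2 fold change -1.11 ± 0.28, adjusted p = 0.039). These 6 calls were lost without the first DKO ES library (adjusted p = 0.058 to 0.13) and without the second (0.15 to 0.23). Bbc3 and Tead4 were lost with day 8 as the only differentiated library (0.076 to 0.096), and with day 12 as the only one Dhcr7, Ier3 and Tead4 (0.058 to 0.11). Ccnd2 was the single call among 26 mitosis and cyclin genes. Of 10 two-cell-like genes, 40 cytosolic ribosomal protein genes and 5 X inactivation and Y-linked genes edgeR called 0, with 1, 6 and 2 at an unadjusted p under 0.05 and 1, 1 and 2 called by DESeq2. Among the two-cell-like genes 8 of 10 reached the filter only with the help of WT or KO libraries. So did 4 of the 5 X inactivation and Y-linked genes and 6 of the 11 trophoblast genes. The counts for these 3 lists therefore follow in part from the filter.

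Day 12 and day 8, with 1 library each and so no test, differed most in endoderm and streak genes. At least 4-fold on a CPM + 1 scale, 377 genes (2.81%) were higher at day 12 and 79 (0.588%) lower. Among genes with at least 5 RPKM in either library, the largest ratios of day 12 over day 8 were 63.1 for S100g, a calcium-binding protein that yolk sac endoderm expresses, 62.6 for T, 49.2 for Sp5, 41.5 for Apoc2, 39.5 for Six2, 31.6 for Afp, 29.2 for Rbp4 and 28.3 for Sox17. In WT cells T and Sox17 were also higher at day 12, by log2 ratios of 2.73 and 2.71, and Apoc2 was not (-0.34). Of 20 yolk sac products 17 were at least 4-fold higher at day 12, as were 10 of 12 endoderm regulators, 10 of 15 parietal endoderm genes and 10 of 19 streak genes.

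The genes that were lower at day 12 were led by Nphs1 (nephrin), with 4.58 CPM at day 12 and 84.9 CPM at day 8, against 4.39 and 4.16 CPM in DKO ES cells. Day 8 exceeded day 12 by 15.4-fold for Nphs1, 11.4-fold for Aire, 11.2-fold for Nphs1as, 9.45-fold for Gadd45b, 8.98-fold for Mafa, 8.93-fold for Kirrel2 and 7.95-fold for Tcf15. Nphs1as runs antisense to Nphs1, and the sources used here do not say that counting used strand, so their reads cannot be told apart. For Mafa, Kirrel2 and Tcf15 day 8 stood above and day 12 below the ES libraries.

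Compared with the KO line, which lacks SUV420H2 alone, the change on differentiation differed at 299 genes towards higher in DKO and at 278 towards lower. Ripply3 stood near its differentiated DKO level throughout in KO cells, where it had 1.43 and 2.23 CPM in differentiated KO cells and 2.001 and 2.61 CPM in KO ES cells (difference of changes -7.63 ± 0.77, adjusted p = 0.006). Zic2 had 145 and 83.5 CPM in differentiated KO cells and 178 and 208 CPM in KO ES cells (5.66 ± 0.57, adjusted p = 0.006), and Vrtn had 109 and 85.97 CPM in differentiated KO cells and 10.1 and 11.2 CPM in KO ES cells (7.85 ± 1.25, adjusted p = 0.02). Fgf17, an FGF ligand, had 49.4 CPM at day 8 and 41.7 CPM at day 12, against 6.81 and 5.30 CPM in DKO ES cells and 8.38 and 5.93 CPM in differentiated KO cells and 48.2 and 53.9 CPM in KO ES cells (5.75 ± 0.52, adjusted p = 0.0044), and Trh, the thyrotropin-releasing hormone gene, had 1220 CPM at day 8 and 678 CPM at day 12, against 139.9 and 98.5 CPM in DKO ES cells and 428 and 189 CPM in differentiated KO cells and 504 and 636 CPM in KO ES cells (3.88 ± 0.58, adjusted p = 0.017). For both genes the change in DKO also exceeded that in WT, by 8.25 ± 0.55, adjusted p = 0.00031 for Fgf17 and 8.35 ± 0.63, adjusted p = 0.00065 for Trh, as it did for Vrtn (9.83 ± 1.23, adjusted p = 0.0031) and for Lefty1, a Nodal inhibitor (7.64 ± 1.04, adjusted p = 0.0034). In the other direction Hand1 had 287 and 460.1 CPM in differentiated KO cells and 5.75 and 6.44 CPM in KO ES cells (-5.60 ± 0.88, adjusted p = 0.02), Twist2 had 16.8 and 45.1 CPM in differentiated KO cells and 0.292 and 0.087 CPM in KO ES cells (-7.98 ± 0.97, adjusted p = 0.014) and Col1a1 had 34.4 and 259.8 CPM in differentiated KO cells and 1.25 and 1.61 CPM in KO ES cells (-6.49 ± 1.25, adjusted p = 0.032). All 3 were higher in differentiated than in ES cells of the KO line and stayed near the ES level in the DKO line. The summed blood markers were 89.99 and 309 CPM and the fibroblast and mesenchyme markers 83.5 and 1014 CPM in differentiated KO cells. The DKO against KO calls depended on keeping all 4 DKO and KO ES libraries, and far fewer genes were called without any 1 of them. Some differences moved little over all settings, with Ripply3 between -7.91 and -6.54 and Zic2 between 4.86 and 6.12. Vrtn ranged from 1.05 to 11.07. Of the 8 genes named, 1 (Fgf17) held without either KO ES library (adjusted p = 0.055 to 0.13 and 0.063 to 0.14 for the other 7), 4 held without the first DKO ES library (0.068 to 0.087 for the rest) and 0 without the second (0.06 to 0.14). Vrtn was also lost without KO day 12 (0.06) and Col1a1 without DKO day 8 (0.065). The Vrtn difference rests on 2 reads in DKO ES cells, and in limma it was 1.05 on log2(RPKM + 1) and 3.63 on log2(RPKM + 0.1) (adjusted p = 0.44 and 0.052). Col1a1 was -3.47 on log2(RPKM + 1) (adjusted p = 0.074).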

How the data were processed

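Polyadenylated RNA was prepared with the NEBNext Ultra II kit and sequenced on an Illumina platform, per the labels' protocols, and reads were aligned with Bowtie2 (version not given) to mm9, per the submitters' processing notes. The sources used here do not give the read counter, its use of strand or how it treated reads with several matches. In the deposited tables the authors give whole-number read counts and RPKM (reads scaled by transcript length and depth) for 29257 transcript models of 22878 symbols. The longest model stood for each symbol.

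edgeR 4.0.16 quasi-likelihood tests (R 4.3.3) with TMM scaling used all 12 libraries in 6 groups of genotype and state, with 6 residual degrees of freedom, on the 13429 genes that reached 1 RPKM in 2 libraries or more. A difference of changes is the interaction of genotype and state. Interactions and single-genotype changes share the DKO ES libraries. limma 3.58.1 on log2(RPKM + 1), DESeq2 1.42.0 and other settings were alternatives. Python 3.11.15, pandas 2.3.3, numpy 2.4.6 and matplotlib 3.10.9 made tables and plots. The tests were also run on simulated counts without any change between days. That run cannot show how taking the days as replicates affects the calls. No batch is labelled.

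The members and the 32 gene lists were chosen with earlier results of these data known. Named genes were, per comparison, the 12 largest rises and falls at 5 RPKM or more without overlap, the 8 largest interactions and day ratios per direction, and marked and smallest-p members of lists; of these a part is printed, and members of small counts are named as well. A few named results are not reported here. Intervals and the floor of 3 reads cover counting error only. Sequences are from RefSeq (GRCm38.p6), matched by symbol.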

Additional observations from a re-analysis of the deposited data

Results flagged for a closer look

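These results were singled out because the change on differentiation in DKO cells differed from that in another genotype, by the interaction test in edgeR. The change differed from that in WT at 4268 genes and from that in KO at 577. Values are the DKO change minus the other genotype's change, on the log2 scale, and the levels stand in the report.

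Against WT, pluripotency and primed genes lay above 0: Pou5f1 by 4.32 ± 0.70, Nanog by 4.28 ± 0.57, Sox2 by 3.66 ± 0.78, the hairpin regions Mir294 by 3.03 ± 0.76 and Mir291b by 2.36 ± 0.66, Zic2 by 6.72 ± 0.59, Dnmt3b by 3.93 ± 0.53, Lef1 by 4.71 ± 0.79 and Fgf5 by 4.85 ± 1.29. So did Vrtn by 9.83 ± 1.23, Trh by 8.35 ± 0.63, Fgf17 by 8.25 ± 0.55, Lefty1 by 7.64 ± 1.04, Myc by 2.80 ± 0.26 and Ldha by 2.11 ± 0.30. Some lineage and imprinted genes lay below 0, with -5.72 ± 1.24 for Gata6, -4.91 ± 1.41 for Gata4, -9.34 ± 0.98 for Hand1, -9.35 ± 1.29 for Col1a1, -13.18 ± 3.26 for Col3a1, -10.63 ± 0.997 for Twist2, -6.49 ± 0.88 for Gata2, -7.43 ± 1.74 for Igf2, -7.76 ± 0.84 for H19 and -6.37 ± 1.86 for Dlk1. Col1a1, Col3a1, Twist2, H19 and Dlk1 reached the filter only with the help of WT or KO libraries. By list, the DKO change was below the WT change at 18 of 23 mesenchyme genes, 3 of 12 endoderm regulators and 1 of 20 yolk sac products. Ripply3, which falls in both lines, had -5.88 ± 0.74. Of these 26 genes, 18 held without either WT ES library, 22 without the first and 20 without the second DKO ES library.

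Against KO the differences were -7.63 ± 0.77 for Ripply3, 5.66 ± 0.57 for Zic2, 7.85 ± 1.25 for Vrtn, 5.75 ± 0.52 for Fgf17, 3.88 ± 0.58 for Trh, -5.60 ± 0.88 for Hand1, -7.98 ± 0.97 for Twist2 and -6.49 ± 1.25 for Col1a1. The calls of these 8 depended on which ES libraries were kept, as the report gives. Groups of 2 libraries are too small for a search for outlying libraries.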

How the results depend on the processing

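Across alternative settings the counts of calls moved more than the directions did. Higher and lower counts for DKO differentiation were 1400 and 1241 with day as a term, 1534 and 1290 with DESeq2, 223 and 197 on the 4 DKO libraries alone, and between 36 and 879 and between 42 and 499 with 1 library left out. Against WT the counts ranged from 985 to 2791 higher and from 721 to 2682 lower with 1 library left out. Against KO they were 1023 and 935 with day as a term, 998 and 1034 with DESeq2, 159 and 150 on the 8 DKO and KO libraries, and 1 to 696 higher and 0 to 886 lower with 1 library left out; that fit without DKO ES replicate 2 left 1 gene in all, against 2032 by DESeq2 on all 12 libraries. Of the 104 calls in DKO differentiation that the report's leave-one-out counts cover, 68 held in limma on log2(RPKM + 1) and 87 on log2(RPKM + 0.1), 104 in DESeq2, and 54 of 92 with a value in the fit on the 4 DKO libraries. On log2(RPKM + 1) 2 of 13 endoderm calls, 1 of 6 largest rises, 1 of 5 blood, muscle and mesenchyme calls and 3 of 7 Wnt and BMP calls held, and all 13 glycolysis and hypoxia calls did. On the 4 DKO libraries 6 of 13 endoderm and 2 of 9 stress calls held. The cause was not tested, other than that a fit with 1 library fewer has fewer residual degrees of freedom and takes the lone library to vary like the other groups.

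The block on replicate number and day gave 942 higher and 765 lower genes for DKO differentiation and 584 and 458 against KO. The ES numbers did not pair the samples: the second minus the first ES library correlated at -0.04 between every pair of genotypes, and day 12 minus day 8 at -0.03 (WT and KO), 0.17 (WT and DKO) and 0.45 (KO and DKO).

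Directions that turned were all of changes that had not passed. Pou5f1 was 0.01 with the filter on the groups compared and 0.02 on the DKO libraries alone, and ranged from -0.56 to 0.37 with 1 library left out. With 1 library left out Sox2 ranged from -0.79 to 0.25, Gata4 from -0.68 to 2.59, Col1a1 from -0.15 to 0.54, Col3a1 from -1.62 to 0.69, Hand1 from -1.09 to 1.04, Igf2 from -1.83 to 2.99, Sp5 from -0.18 to 6.15 and Suv420h1 from -0.12 to 0.36 (log2 fold changes). Of all recomputed values 1944 kept direction and side of the threshold, 409 lost the threshold, 35 gained it and 14 turned. With 2 libraries a group, changes under about the spread between days are not detectable, and genes with few reads in ES cells have folds set by those reads.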
